A study of Mus musculus with 2 samples.

Results

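The Ikaros zinc-finger family is the set of 5 genes Ikzf1 (Ikaros), Ikzf2 (Helios), Ikzf3 (Aiolos), Ikzf4 (Eos) and Ikzf5 (Pegasus), and it was measured here in P5424, a mouse line of immature T cells. Members were chosen by name, as every non-control probe whose gene name in the scanner files is one of the 5. This gave 11 of 55681 probes, with 3 probes for Ikzf1, 2 for Ikzf2, 1 for Ikzf3, 3 for Ikzf4 and 2 for Ikzf5. The study holds 1 group of 2 samples, replicate 1 and replicate 2, each hybridised to a one-colour Agilent mouse array of 60-base probes. Both samples are labelled as untreated P5424 cells in which Rag2 and P53 are knocked out, kept in RPMI1640 medium. P5424 is a single line, and the labels name no wild-type or treated sample, so no value below compares conditions. Nothing in the labels says that the samples came from separate cultures, and their spread may therefore be technical. In RNA from many cells together, fewer cells expressing a gene and less of its RNA per cell cannot be told apart.

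Ikaros family proteins are transcription factors of lymphocytes. A cluster of zinc fingers near the start of the protein binds DNA, and another pair of fingers at its end lets members bind themselves and each other. Ikaros is needed for lymphocyte development, recruits chromatin remodelling complexes and acts as a tumour suppressor in mouse T-cell leukaemia. Alternative splicing gives Ikaros isoforms with fewer DNA-binding fingers, which can block the full-length protein. Helios and Eos are best known from regulatory T cells, Aiolos from B cells and maturing lymphocytes, and Pegasus is the most distant relative.

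A pair of family probes has nearly the same sequence. The Ikzf1 probe A_55_P2023612 and the Ikzf4 probe A_55_P1979682 cover the same part of their genes, which codes for a finger of the C-terminal dimerisation pair. They are shown because they are the closest match to each other among all 55681 probes, with 53 of 59 overlapping bases identical (89.8%). The Ikzf1 probe lies at chr11:11669493-11669552 (plus strand) and the Ikzf4 probe at chr10:128071131-128071190 (minus strand) of mm9, and capitals mark the bases at which they differ:
Ikzf1 A_55_P2023612: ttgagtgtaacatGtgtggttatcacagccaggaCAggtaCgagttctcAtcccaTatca
Ikzf4 A_55_P1979682: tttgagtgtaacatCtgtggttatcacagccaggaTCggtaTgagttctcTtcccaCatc

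The 6 differences, with the Ikzf1 base first, the position counted from 1 at the 5′ end of the Ikzf1 probe and the Ikzf4 base last, were G14C, C35T, A36C, C41T, A50T and T56C. The next closest probe to the Ikzf1 probe, one for Dolk, shared 32 bases. The next closest to the Ikzf4 probe, one for Stoml1, shared 34. For the other 9 family probes the closest probe on the array, either strand and any shift of up to 20 bases considered, shared 31 to 35 bases. Whether either finger probe takes up transcript of the other gene was not tested.

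The other Ikzf1 probes are given by their first 30 bases, because they are assigned to different transcripts of the gene:
Ikzf1 A_55_P2023607: cagaaatttcttggtaagagttaaatgttt
Ikzf1 A_66_P124139: aggaagctcatgtgcatctggtgctatggc

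Probe A_66_P124139 starts at base 5061 of transcript NM_001025597 and lies at chr11:11672828-11672887. The finger probe starts at base 1726 of the same transcript. The starts of these probes are 3335 bases apart on the transcript and on the genome alike, so no intron separates them. Probe A_55_P2023607 (chr11:11661344-11661403) belongs to another transcript, ENSMUST00000048122, starting at its base 827. It lies 8149 bases upstream of the finger probe on the genome and shares 0 of its listed transcripts with either of the others. Whether these 2 probes lie in coding or untranslated sequence was not determined here.

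A probe was called detected when both arrays carried the scanner software's mark for a signal well above background, and a gene when any of its probes was. All 5 family genes were detected, where 51.7% of the 22221 named genes on the array were. With every probe of a gene required, 4 of the 5 were detected, Ikzf4 being the exception, against 44.6% of all named genes. By probe, 9 of the 11 were detected on both arrays, 1 on replicate 1 alone and 1 on neither, against 40.1% of all probes detected on both. The 2 that failed are both Ikzf4 probes. All 11 had a positive and significant signal on both arrays, the software's weaker criterion.

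Depth on an array is signal over background. Replicates 1 and 2 had 42.5% and 41.2% of their probes well above background. Medians over the 308 negative control spots were 6.55 and 7.50 intensity units on replicates 1 and 2, and the highest control spots reached 15.1 and 101. The second highest reached 10.6 and 17.6. Each family probe is printed on 1 spot, 0 of these spots were marked as outliers, and 0 spots on either array were saturated. Thymocyte markers were all detected, 10 of 10, against 51.7% of all named genes. They ranged from Cd247 at 1.83 ± 0.51 to Cd3d at 8.91 ± 0.06 on the scale explained next. Of 22 markers of other lineages on the array, 6 were detected, namely Cd79a, Csf1r, Itgam, Cd14, Klf1 and Pdgfrb, with values of -2.76 to 4.40. The highest were Itgam at 4.40 ± 0.17 and Pdgfrb at 2.33 ± 0.07, both above Cd247. By lineage, 3 of 5 myeloid, 1 of 6 B-cell and 0 of 3 natural killer markers were detected. So were 1 of 2 erythroid and 1 of 6 epithelial and stromal markers. Those not well above background include Pax5, Lyz2, Ncr1 and Epcam.

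Values are log2 signals minus the 75th percentile of their array, so that 0 is that percentile, and are means ± SD over the 2 arrays (n = 2). A probe's signal depends on its own sequence and place as well as on its transcript, so the levels below rank probes and not amounts of transcript.

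Ikzf1, the founder of the family, had its brightest signal with the probe farthest downstream. A_66_P124139 gave 2634 ± 263 intensity units on replicate 1 and 2276 ± 228 on replicate 2, where the error is the software's estimate for that spot. Its value was 2.98 ± 0.07, and at least 87.9% of all probes on either array were dimmer. The arrays differed by less than the spot errors at this probe. Those errors are the software's estimates and not a spread over repeated spots, as each family probe has 1 spot.

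The Ikzf1 probe of the other transcript was nearly as bright. A_55_P2023607 gave 2451 ± 245 units on replicate 1 and 1611 ± 161 on replicate 2, a value of 2.67 ± 0.34. Replicate 2 was lower by 1.40-fold after scaling (log2 difference -0.49, replicate 2 minus replicate 1), which is 2.39 times the combined spot error of 0.20. That error was 0.204 at both bright Ikzf1 probes and 0.205 at the brighter Ikzf5 probe. It was thus nearly fixed at bright probes, where its multiples largely restate the size of the difference. Each of the transcript assignments of Ikzf1 thus had a bright probe, and which transcripts gave these signals was not tested.

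The Ikzf1 finger probe was far dimmer and moved the other way. A_55_P2023612 gave 131 ± 15.03 units on replicate 1 and 170 ± 19.1 on replicate 2, a value of -1.06 ± 0.35. It was 1.41-fold higher on replicate 2 (log2 difference 0.50), 2.15 combined errors. Signals on both arrays were above every negative control spot. The detected probes on neighbouring spots, within 10 rows and columns, differed by a median of 0.01 around the finger probe, -0.06 around A_55_P2023607 and less than 0.01 in size around the brightest probe.

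The 3 Ikzf1 probes thus spanned 4.03 log2 units in level and 0.98 in their difference between the arrays. Among the 664 genes with 3 or more detected probes the median span was 3.58 in level and 0.45 in difference. A span in level at least as wide was found for 43.1% of these genes, and a span in difference at least as wide for 9.64%. The Ikzf1 probes were therefore spread in level like those of many genes on this array, and spread in difference more widely than those of most genes.

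Ikzf2 encodes Helios, which marks many thymus-derived regulatory T cells and is also present in early thymocytes. Probe A_52_P413515 (chr1:69577853-69577912) gave 265 ± 27.2 units on replicate 1 and 174 ± 18.7 on replicate 2, a value of -0.53 ± 0.35. Probe A_66_P122551 (chr1:69584008-69584067), 6155 bases upstream in NM_011770 with no intron between them, gave 198 ± 20.9 and 147 ± 16.6 units, a value of -0.87 ± 0.22. Both Ikzf2 probes were lower on replicate 2, with log2 differences of -0.49 and -0.31, of which the first exceeds 2 combined errors (2.28) and the second does not (1.41).

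Ikzf3 encodes Aiolos, and its only probe was dim, although detected on both arrays. A_55_P2113598 (chr11:98326176-98326235, base 3869 of NM_011771) gave 68.5 ± 10.0 units on replicate 1 and 61.2 ± 10.6 on replicate 2. Its value was -2.27 ± 0.03, and the arrays differed by 0.14 combined errors. On replicate 1 this is above the highest negative control spot, and on replicate 2 it is below the highest control spot and above the second highest. On replicate 2 a signal below that highest control spot was seen for 19.2% of all detected probes.

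Ikzf4 encodes Eos, a partner of Foxp3 in regulatory T cells, and only 1 of its 3 probes was detected on both arrays. A_55_P2119917 (chr10:128069604-128069663) gave 62.2 ± 9.50 units on replicate 1 and 54.5 ± 10.0 on replicate 2, a value of -2.42 ± 0.05. As for Ikzf3, the signal on replicate 2 is below the highest negative control spot and above the second highest. A_55_P1979674 (chr10:128069521-128069580), which starts 83 bases further along the transcript, gave 43.6 ± 7.39 units on replicate 1 and 26.6 ± 7.05 on replicate 2, where it was not well above background. The finger probe A_55_P1979682, 1527 bases upstream of the detected one, gave 14.6 ± 7.32 and 37.9 ± 9.20 units and was not well above background on either array. Spots that are not well above background give only a bound, so no difference between the arrays is given for these 2 probes. Among the 3071 detected probes with a value below -2, the median difference between the arrays was 0.13.

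Ikzf5 encodes Pegasus, which is expressed in many tissues and recognises a DNA sequence different from that of Ikaros. Probe A_52_P582261 (chr7:138532770-138532829) gave 761 ± 76.4 units on replicate 1 and 668 ± 67.3 on replicate 2, a value of 1.20 ± 0.05. Probe A_66_P123989 (chr7:138533886-138533945), 1116 bases upstream in NM_175115 with no intron between them, gave 291 ± 29.96 and 276 ± 28.9 units, a value of -0.13 ± 0.03. The Ikzf5 probes differed between the arrays by 0.34 and 0.21 combined errors, less than the error of the spots.

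Taking each gene by its brightest detected probe, the order was Ikzf1 (2.98), Ikzf5 (1.20), Ikzf2 (-0.53), Ikzf3 (-2.27) and Ikzf4 (-2.42). Neighbours in the order from Ikzf1 to Ikzf3 were 1.73 to 1.78 apart, which is more than the SD over the arrays (at most 0.35). That SD does not cover the spread between probes of the same gene, 4.03 for Ikzf1 and 1.33 for Ikzf5. The order is therefore one of the probes chosen and not of the genes. Ikzf3 and Ikzf4 were 0.15 apart, more than their SDs over the arrays (0.03 and 0.05). On each array, however, their signals were within the spot errors of each other. They were 68.5 ± 10.0 and 62.2 ± 9.50 units on replicate 1, and 61.2 ± 10.6 and 54.5 ± 10.0 on replicate 2. In each of the 3 genes with detected probes at least 1000 bases apart on 1 transcript, the downstream probe was the brighter, by 4.03 for Ikzf1, 0.34 for Ikzf2 and 1.33 for Ikzf5. The same was true of 66.0% of 1203 such transcripts on the array, with a median difference of 1.23, so the direction seen in the family is the common one. This comparison was chosen after the values were seen.

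Between the arrays most family probes differed little and 3 differed by more than 2 combined spot errors. Of the 9 detected probes 7 were lower and 2 higher on replicate 2, where 50.7% of all detected probes were lower. Their median absolute difference was 0.09, against 0.18 over all detected probes. None of the 9 was over 2-fold apart, as were 1.15% of all detected probes. Differences over 2 combined spot errors were seen for 3 of the 9, against 13.9% of all detected probes. These 3 are the Ikzf1 probe of the other transcript, the Ikzf1 finger probe and 1 Ikzf2 probe. At bright probes 2 combined errors are close to a fixed cut-off on the difference itself, not a measure of noise particular to the spot. With 1 array a replicate no test per probe was possible. The sign of the difference depended on the processing at the dimmer of the Ikzf5 probes, at Ikzf3 and at Ikzf4, where the reported differences were within the error of the spots, and was the same under every alternative at the other 6 probes.

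Probes with other names within 50 kb of the family's probes were examined as a further readout of each locus, a window set after the values were seen. Downstream of Ikzf2 on its own strand, 9024 to 39996 bases past the last Ikzf2 probe, lie 13 probes that the array's design assigns to lincRNA loci, and 6 of these were detected. On the opposite strand 0 of 5 lincRNA probes were. The share over all probes was 40.1%, so the count on the strand of Ikzf2 was near that of the array as a whole. The detected probes had values of -2.68 to -0.22. Most of them, 4 of 6, belong to the locus chr1:69531191-69570566 on the reverse strand, whose brightest probe gave 333 units on replicate 1 and 213 on replicate 2. The rest are assigned to chr1:69555180-69555559 and chr1:69566918-69567447, which lie within that interval on the same strand.

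All 6 detected lincRNA probes were lower on replicate 2, with log2 differences of -0.86 to -0.34, and so were both Ikzf2 probes. A difference of -0.34 or lower was seen for 10.7% of all detected probes. That cut-off is the smallest fall among the 6 themselves, so all of them meet it by construction. Of these, 4 belong to 1 locus, and the rest lie within the interval of that locus. The Ikzf2 probe at -0.31 does not reach it. The farthest 3 probes, 39819 to 39996 bases downstream, were not detected. Whether these probes and the Ikzf2 probes report 1 transcript was not tested.

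The other loci held neighbours with gene names, of which some are given here. Distances are between probes and not between genes. Fignl1 and Ddc, 27.6 to 41.2 kb downstream of Ikzf1 on the opposite strand, had values of 4.11 to 5.32 and differed between the arrays by at most 0.02. Grb7 and Erbb2, on the opposite strand 9.50 and 28.0 kb downstream of Ikzf3, were not well above background, while 1810046J19Rik, on the strand of Ikzf3 and 26.8 kb downstream, had a value of 5.95 ± 0.04. Rps26, a ribosomal protein gene 7.16 kb downstream of Ikzf4 on its strand, had a value of 9.20 ± 0.03, while the only detected Ikzf4 probe had -2.42 ± 0.05. Pstk, on the opposite strand 15003 bases downstream of Ikzf5, had a value of 3.56 ± 0.25.

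Genes that work with Ikaros were grouped in fixed lists and counted as detected or not, since a single condition allows no other comparison. Of all named genes 51.7% were detected with any probe and 44.6% with every probe, and the median value of the detected ones was 2.14. All 13 genes of the NuRD complex, the nucleosome remodelling and deacetylase complex that Ikaros binds in lymphocytes, were detected, with a median of 5.63. Its remodelling ATPases Chd4 and Chd3 had values of 6.52 ± 0.03 and 5.79 ± 0.10, and the deacetylases Hdac1 and Hdac2 had 7.29 ± 0.02 and -0.22 ± 0.33. Every probe of the 13 genes was detected.

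Of 10 other chromatin partners, 9 were detected (median 4.02). The SWI/SNF subunits Smarca4, Smarcb1, Smarcc1 and Smarcd1 had values of 7.55 ± 0.09, 4.30 ± 0.04, 3.81 ± 0.06 and 1.38 ± 0.36. The corepressor gene Ctbp2 was not well above background, while its relative Ctbp1 was detected at 6.30 ± 0.20. All 11 genes for phosphorylation and turnover of Ikaros proteins were detected (median 4.67). Among them the subunits of casein kinase 2, which phosphorylates Ikaros, had values of 4.67 ± 0.07 (Csnk2a1), 3.79 ± 0.09 (Csnk2a2) and 6.96 ± 0.02 (Csnk2b), and the phosphatase subunit Ppp1ca had 8.21 ± 0.01.

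Of 18 genes reported as targets of Ikaros in lymphocytes, 14 were detected (median 4.79). They include Notch3 at 4.79 ± 0.17 and Dtx1 at 6.69 ± 0.52, of the Notch pathway, Ptcra, a chain of the pre-T-cell receptor, at 5.52 ± 0.25, and Dntt, which encodes terminal transferase, at 8.58 ± 0.11. The 4 not well above background were Hes1, a Notch target, Igll1, part of the surrogate light chain of B-cell precursors, the cytokine gene Il2 and the signal transducer Stat4. Whether any of these levels depends on Ikaros was not tested, since no sample with altered Ikaros was measured here.

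The lists drawn for the other members had shares of detected genes nearer to the 51.7% of all named genes, and with so few genes nothing is read from the distance. Of 11 regulatory T-cell genes 8 were detected, or 6 of 9 without Ikzf2 and Ikzf4 themselves (median of the 8, -0.55). Foxp3, the defining factor, was not well above background, nor were Ctla4 and Gpr83. The surface genes Il2ra, Tnfrsf18, Nrp1 and Lrrc32 were detected at -2.31 ± 0.25, 2.74 ± 0.15, -0.56 ± 0.29 and 0.17 ± 0.68. Of 10 B-cell and plasma-cell genes, drawn for Aiolos, 4 were detected (median -0.83), namely Cd79a at -2.74 ± 0.11, Cd22 at -1.44 ± 0.18, Irf4 at -0.22 ± 0.04 and Xbp1 at 1.98 ± 0.20. By the software's weaker criterion 7 of the 10 were counted, where 67.5% of all named genes were. Cd79b was well above background on 1 array.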

How the data were processed

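The members and gene lists were chosen with earlier results of these data known. Intensity values come from Agilent Feature Extraction 10.5.1.1, per the submitters' processing notes, which subtracted a fitted background and removed array trends, per the file headers. The deposited files were not scaled between arrays. The authors also deposited a table of log2 values whose centring is unknown. It was used as an alternative, since its spots tracked the scanner signal of the same array (slopes 0.997 and 1.01, column medians 5.18 and 5.18).

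Here, non-uniform and population outlier spots were left out, log2 signals were averaged per probe, and each array's 75th percentile was subtracted. With several spots, 50% had to be well above background. The combined spot error adds the relative errors of both arrays in quadrature on the log2 scale. Accessions (26762 probes), symbols (3819) and unique synonyms (639) were matched to RefSeq gene names of GRCm38.p6, used for names only, and 24461 probes matched none. Positions are mm9, per the file headers. The brightest detected probe gave the value of a gene. Besides the family, the first 4 detected and first 2 undetected members of each list are named, and the whole smaller class where it has 5 or fewer, except 1 gene that is not reported here; Ctbp1, the markers and neighbours named, and the comparison of probe spans, were added after their values were seen. The scaling step was tested on simulated data. Tools were Python 3.11.15, pandas 2.3.3, R 4.3.3 and limma 3.58.1.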

Additional observations from a re-analysis of the deposited data

How the results depend on the processing

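Detection of the family gave 5 genes under every alternative except that requiring every probe, which gave 4, and of 11 probes 9 to 11 were detected. Every list count moved by less than 1.5 times except that of B-cell and plasma-cell genes, which reached 7 of 10 with a positive and significant signal. The order of the 5 genes was the same under all 7 alternatives, although Ikzf3 and Ikzf4 were at most 0.28 apart in any of them. Moving the zero of an array cannot change this order, and keeping outlier spots could not, as 0 family spots were outliers. None of the 7 varied the use of the brightest probe. By its finger probe, at -1.06, Ikzf1 would fall below the brightest probes of Ikzf5 (1.20) and Ikzf2 (-0.53). The zero of the scale is a choice. The median level of the 9 detected probes was -0.53 as reported, -4.04 with the 75th percentile of detected probes, 3.46 with the array median, -0.31 with normexp background correction and 7.67 in the authors' deposited log2 values, and it ranged from -0.78 to -0.29 with 1 replicate left out. Scaling by the array median changed the difference between the arrays of every probe by the same -0.23, which turned the sign of 1 Ikzf5 probe (to -0.18) and left 8 of 9 family probes lower on replicate 2, where 78.4% of all detected probes were lower. Normexp gave 6 of 9, where 50.3% were lower. Low signal limits Ikzf3 and Ikzf4 most. No paired analysis was possible because the study has 1 group.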
